A study of Mus musculus with 5 samples.

Results

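The matrix metalloproteinase (Mmp) and Adamts genes encode zinc proteases that cut the extracellular matrix. They were taken as a family with earlier results of these data known, and the members by symbol, as the protein-coding genes on chromosomes 1 to 19 of the mm9 GENCODE vM1 annotation whose name begins with Mmp or Adamts followed by a digit. This gave 42 genes, 23 Mmp and 19 Adamts, of 21418 protein-coding genes on these chromosomes. Each gene's start site, meaning its annotated 5′ end, and its whole gene body were set against intervals enriched for H3K27me3, the histone mark that Polycomb Repressive Complex 2 (PRC2) places on repressed genes.

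The intervals came from chromatin immunoprecipitation followed by sequencing in mouse embryonic fibroblasts (MEFs). All lines derived from a mid-gestation embryo with loxP sites around exons of Eed, a PRC2 subunit gene that had not been deleted in the 3 lines used here. These lines stably expressed H3.3K27R, H3.3K27M or human EZHIP from a lentiviral vector with the EF1a promoter and puromycin selection. The antibody, C36B11, is labelled H2K27me3 while the sample titles give H3K27me3. K27M is the H3 mutant of diffuse midline glioma and EZHIP a PRC2-binding protein of ependymoma, and both inhibit PRC2. K27R carries a different substitution at the same residue and served here as the reference. The labels do not say whether these lines are clones, and name 1 selected clone for the Eed deletion line only. Libraries of the parental cells and of Eed-deleted cells were not analysed here. Each line had 1 library, and each list gave positions without heights or read counts. Depth was therefore unknown, no difference could be set against replicate spread, and every count below describes these 3 libraries.

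Mmp proteins are made as inactive precursors, most are secreted, and a membrane-type group is tethered to the cell surface. Between them they cut fibrillar collagen, gelatin, elastin and the precursors of other proteases. Adamts proteins are secreted and carry thrombospondin repeats that hold them in the matrix, where different members trim procollagen, cut aggrecan and versican, or process von Willebrand factor. Fibroblasts are a main source of many of these enzymes, while others belong to neutrophils, macrophages, tooth enamel or epithelium. PRC2 is known to start at CpG islands, stretches rich in the CG dinucleotide, and to spread H3K27me3 outward from them.

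The bases before the start site are shown for genes picked as examples of the observed patterns, with every CG in capitals. Adamts2, Mmp24 and Mmp17 have a CpG island at the start site and lay in intervals of all 3 lists. Adamts13 has no island and lay in K27R and EZHIP intervals. Mmp3 and Mmp7 belong to the Mmp cluster of chromosome 9, have no island and lay in K27R intervals alone. Each run is the 250 bases upstream of the gene's 5′ end, read 5′ to 3′ on the gene's strand from the mm9 genome. The runs lie at chr11:50415336-50415585 (plus strand) for Adamts2, chr2:155600828-155601077 (plus strand) for Mmp24, chr5:130089839-130090088 (plus strand) for Mmp17, chr2:26828686-26828935 (plus strand) for Adamts13, chr9:7445572-7445821 (plus strand) for Mmp3 and chr9:7691836-7692085 (plus strand) for Mmp7. They hold 34, 33, 26, 1, 1 and 0 CG dinucleotides, in the order printed. The examples do not span the range of each pattern. The other starts in all 3 lists had fewer, from 8 at Adamts8 to 20 at Adamts9 and Adamts18. Adamts3 and Adamts14, whose starts lay in K27R alone, had 35 and 33.
Adamts2: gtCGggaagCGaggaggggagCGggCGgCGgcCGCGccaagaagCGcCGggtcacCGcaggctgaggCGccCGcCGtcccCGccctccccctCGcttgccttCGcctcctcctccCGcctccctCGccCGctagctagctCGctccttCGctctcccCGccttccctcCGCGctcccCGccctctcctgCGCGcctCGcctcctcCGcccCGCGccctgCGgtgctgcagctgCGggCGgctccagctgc
Mmp24: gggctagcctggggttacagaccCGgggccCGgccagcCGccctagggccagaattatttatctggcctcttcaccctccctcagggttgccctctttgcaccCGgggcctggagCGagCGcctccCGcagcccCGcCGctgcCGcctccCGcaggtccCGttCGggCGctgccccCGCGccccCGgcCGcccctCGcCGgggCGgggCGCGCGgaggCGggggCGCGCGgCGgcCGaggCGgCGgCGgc
Mmp17: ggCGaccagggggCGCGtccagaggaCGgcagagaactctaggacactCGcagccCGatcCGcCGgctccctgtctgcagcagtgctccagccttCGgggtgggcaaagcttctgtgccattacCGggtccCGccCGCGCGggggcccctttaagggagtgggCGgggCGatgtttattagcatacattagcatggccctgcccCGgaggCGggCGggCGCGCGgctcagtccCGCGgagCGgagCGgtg
Adamts13: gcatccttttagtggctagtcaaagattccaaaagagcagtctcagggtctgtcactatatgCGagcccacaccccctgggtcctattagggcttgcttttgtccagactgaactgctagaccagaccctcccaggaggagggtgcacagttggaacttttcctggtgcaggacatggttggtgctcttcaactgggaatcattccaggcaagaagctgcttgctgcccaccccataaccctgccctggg
Mmp3: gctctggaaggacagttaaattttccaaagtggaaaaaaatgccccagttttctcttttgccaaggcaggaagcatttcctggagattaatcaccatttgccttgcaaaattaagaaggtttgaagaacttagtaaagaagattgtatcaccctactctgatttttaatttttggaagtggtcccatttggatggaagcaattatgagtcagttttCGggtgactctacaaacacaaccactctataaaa
Mmp7: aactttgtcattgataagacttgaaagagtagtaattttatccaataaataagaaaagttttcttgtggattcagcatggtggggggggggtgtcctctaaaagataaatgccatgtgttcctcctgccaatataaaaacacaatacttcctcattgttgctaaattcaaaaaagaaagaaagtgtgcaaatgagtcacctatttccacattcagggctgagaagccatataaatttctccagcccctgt

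H3K27me3 intervals of K27R cells covered the start sites of these protease genes more often than those of protein-coding genes at large. Of the 25 covered start sites, 14 lay in no interval of the K27M and EZHIP lists, here called the inhibitor lists. This share (56.0%) was near, and below, the 64.3% among all genes with a start in K27R. The start site lay in a K27R interval for 25 of 42 members (59.5%), against 28.2% of all protein-coding genes. It lay in a K27M interval for 10 members (23.8%, against 8.94% of all genes) and in an EZHIP interval for 9 (21.4%, against 7.96%). These shares were not tested against the background, because genes are not replicates of a line. The start sites of Mmp3 and Mmp1a, of Mmp20 and Mmp7, and of Adamts8 and Adamts15 shared a K27R interval within each pair.

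**Figure D1:**
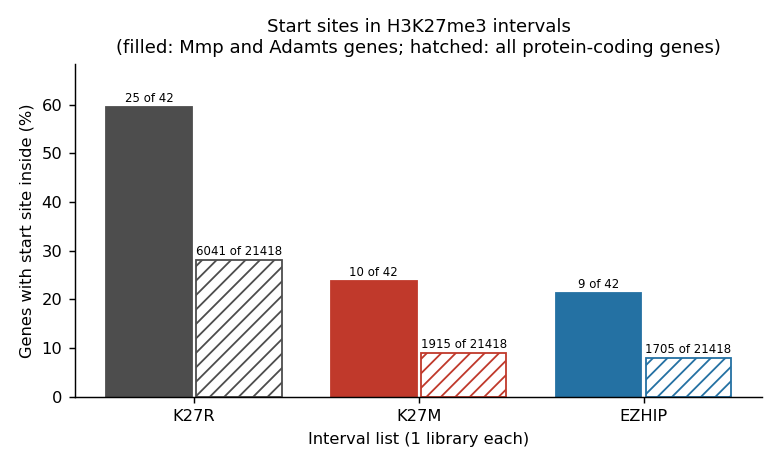
Share of start sites inside H3K27me3 intervals (y axis, percent) for the K27R, K27M and EZHIP lists (x axis, 1 library each), with the 42 Mmp and Adamts genes as filled bars and all 21418 protein-coding genes as hatched bars. The member bar stands above the background bar in each list, at 59.5, 23.8 and 21.4% against 28.2, 8.94 and 7.96%.

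By gene, 8 members had their start site in all 3 lists (19.0%, against 6.81% of all genes): Mmp15, Mmp17, Mmp24, Adamts2, Adamts8, Adamts9, Adamts15 and Adamts18. For 14 members it lay in K27R alone (33.3%, against 18.1%). Mmp9 and Adamts19 lay in K27R and K27M (4.76%, against 2.12%), and Adamts13 in K27R and EZHIP (2.38%, against 1.13%). The remaining 17 members lay in no list (40.5%, against 71.8%). Every start site that an inhibitor list covered was also covered in K27R, as held for nearly all genes. Of the 1915 starts in K27M and 1705 in EZHIP over all genes, 1458 lay in all 3 lists. Another 453 lay in K27R and K27M without EZHIP, and 243 in K27R and EZHIP without K27M.

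Gene bodies gave a like picture. An interval touched the body of 29 members in K27R (69.0%, against 34.2% of all genes), 11 in K27M (26.2%, against 11.3%) and 11 in EZHIP (26.2%, against 10.9%). The median gene length was 23.6 kb for members and 15.5 kb for all genes, and the effect of length on these touched shares was not tested. Of 2998 kb of member gene body, K27R intervals covered 818 kb (27.3%), K27M intervals 63.4 kb (2.11%) and EZHIP intervals 47.6 kb (1.59%). Over all protein-coding genes these shares were 19.1, 1.99 and 1.71%. The median member had 16.7% of its body covered in K27R and 0% in both inhibitor lists, and the median of all genes was 0% in each list. For start sites the members stood above the background in every list. Their pooled share of body length in the inhibitor lists was close to that of all genes, but the 2 families differed. Mmp bodies were covered over 5.31% in K27M and 3.83% in EZHIP, and Adamts bodies over 1.25 and 0.979%. Mmp9 alone held 15.1 of the 33.9 kb of Mmp body covered in K27M, and 5.40 of the 24.5 kb in EZHIP. The Adamts genes made up 2360 kb of the length.

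**Figure D2:**
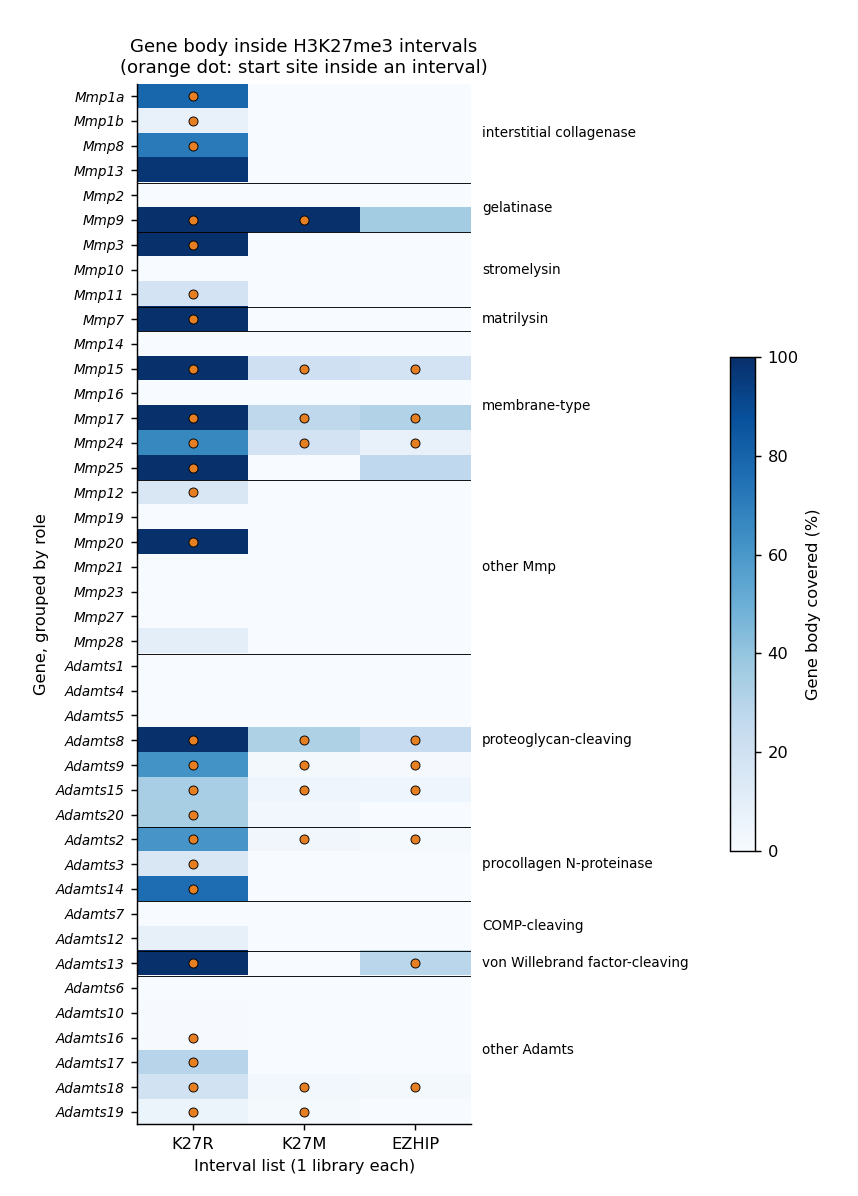
Percent of each gene body inside intervals (colour, 0 to 100%) for 42 genes grouped by role (rows) in the K27R, K27M and EZHIP lists (columns, 1 library each), with an orange dot where the start site lies inside an interval. In the K27R column 29 genes have some cover, against 11 in the K27M column and 11 in the EZHIP column.

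The interstitial collagenases are a group named for opening the triple helix of fibrillar collagen. None of the 4, Mmp1a, Mmp1b, Mmp8 and Mmp13, was touched by a K27M or EZHIP interval. In K27R cells, intervals covered 79.0% of Mmp1a, 71.3% of Mmp8, which is the collagenase of neutrophils, and 97.3% of Mmp13, the collagenase of cartilage and bone. The Mmp13 interval began 287 bp downstream of the start site, so that Mmp13 counted as touched in its body but not at its start. Mmp1b had a K27R interval of 2.8 kb over its start and 7.30% of its body covered. All 4 lie in the chromosome 9 cluster described further on.

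The gelatinases, which digest denatured collagen and basement membrane, differed. Mmp2, which fibroblasts secrete widely, lay in no interval, with the nearest K27R interval 11.8 kb from its start. Mmp9, the gelatinase of neutrophils and osteoclasts, lay wholly in a K27R interval of 89.8 kb (chromosome 2, 164751401 to 164841200). It also lay wholly in a K27M interval of 52.0 kb (164759801 to 164811800), which was 57.9% of the K27R width. No other member had a K27M interval over its whole body. The K27M interval also held the start of Slc12a5, a neuronal chloride transporter gene that begins downstream of Mmp9, at 164786316, with a CpG island at its start. In EZHIP an interval of 5.4 kb (164771801 to 164777200) lay inside the Mmp9 gene, beginning 5.52 kb after the gene's 5′ end and covering 35.8% of the body over merged exons 2 to 9.

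The Mmp9 call depended on which start site was read. The gene's 5′ end belongs to a transcript annotated with an incomplete 3′ end, and the transcript with a consensus coding sequence (CCDS) entry begins 7.44 kb further on, at 164773719. That start lay in the intervals of all 3 lists, and no island lay within 500 bp of it, while the EZHIP interval around it held 2 islands, the wider of 643 bp. The 250 bases before it, at chr2:164773469-164773718 (plus strand), are intronic to the longer-reaching transcript. They are shown because this start, unlike the gene's 5′ end, was covered in EZHIP. They hold 3 CG dinucleotides, again in capitals, and the bases tgagtca begin 69 bases before this start.
Mmp9: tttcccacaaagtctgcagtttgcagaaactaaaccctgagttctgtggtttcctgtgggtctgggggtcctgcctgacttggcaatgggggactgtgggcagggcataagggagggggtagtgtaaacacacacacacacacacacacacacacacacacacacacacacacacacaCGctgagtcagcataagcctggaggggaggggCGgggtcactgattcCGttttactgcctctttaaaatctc

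The stromelysins are Mmp3, Mmp10 and Mmp11, of which Mmp3 and Mmp10 have broad matrix substrates and activate other proteases. Mmp3 lay wholly in a K27R interval of 42.6 kb, and 18.2% of Mmp11 lay in a K27R interval of 94.0 kb that also held 4 other start sites. Mmp10 lay in none, and its nearest K27R interval was 13.2 kb away. Mmp7, the matrilysin of glandular epithelium, lay wholly in a K27R interval of 123.6 kb. None of these 4 genes was touched in K27M or EZHIP, and for Mmp11 the nearest intervals were 14.9 and 14.5 kb from its start.

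The membrane-type group held 3 of the 4 Mmp start sites that lay in an inhibitor list. Of its 6 genes, Mmp15, Mmp17 and Mmp24 had a start site in all 3 lists, Mmp25 in K27R alone, and Mmp14 and Mmp16 in none. All 6 had a CpG island at the start. Mmp14, which activates the Mmp2 precursor on fibroblasts, was 118 kb from the nearest K27R interval, and Mmp16 was 1587 kb from it, farther than any other member.

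Mmp17, a membrane protease held by a lipid anchor, lay wholly in a K27R interval of 67.8 kb (chromosome 5, 130080801 to 130148600). Over its start the K27M interval spanned 11.2 kb (130085401 to 130096600) and the EZHIP interval 12.4 kb (130085201 to 130097600). Mmp15 lay in a K27R interval of 70.0 kb (chromosome 8, 97866001 to 97936000), a K27M interval of 8.8 kb (97872001 to 97880800) and an EZHIP interval of 6.6 kb (97873601 to 97880200). For Mmp24, a protease of the nervous system, the intervals spanned 45.6 kb (chromosome 2, 155584001 to 155629600), 14.6 kb (155594201 to 155608800) and 9.8 kb (155594601 to 155604400). In each of these genes the K27M and EZHIP intervals held the first exon, and no other merged exon, with the island. Mmp25, a leukocyte protease, lay wholly in a K27R interval of 76.8 kb and had its nearest K27M interval 23.4 kb from its start, while an EZHIP interval of 4.2 kb (chromosome 17, 23771201 to 23775400) lay in its body 6.84 kb after the start, over no exon and no island.

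Among the 7 other Mmp genes, Mmp20, the protease of tooth enamel, lay wholly in a K27R interval, and Mmp12, the elastase of macrophages, had 15.2% of its body in a K27R interval over its start. Mmp28 had 9.55% of its body, its 3′ end, in a K27R interval and its start 20.2 kb away. Mmp27 was 5.80 kb, Mmp21 49.1 kb, Mmp23 172 kb and Mmp19 194 kb from the nearest K27R interval. None of the 7 was touched in K27M or EZHIP.

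The Adamts genes that cut aggrecan and versican, the large proteoglycans of cartilage and embryonic mesenchyme, fell into separate sets. Adamts1, Adamts4 and Adamts5 lay in no interval of any list, at 70.8, 33.6 and 169 kb from the nearest K27R interval. Adamts8, Adamts9 and Adamts15 had a start site in all 3 lists. Adamts20, which acts on versican in skin, had its 5′ end in K27R alone.

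Adamts8 and Adamts15 are neighbours on chromosome 9, transcribed away from each other, and shared a K27R interval of 113.2 kb (30722001 to 30835200). The K27M and EZHIP intervals were separate for each start. Over Adamts15 the K27M interval spanned 2.4 kb (30729001 to 30731400) and the EZHIP interval 3.2 kb (30729001 to 30732200). Over Adamts8 they spanned 12.2 kb (30744801 to 30757000) and 7.4 kb (30748001 to 30755400). Adamts9 lay in 6 K27R intervals that covered 62.1% of its body, the one over its start 87.0 kb wide (chromosome 6, 92862801 to 92949800). Of the 6, this one held the gene's inhibitor-list intervals, of 6.6 kb in K27M (92890401 to 92897000) and 3.8 kb in EZHIP (92892001 to 92895800).

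The call at Adamts20 also turned on the annotation. Its 5′ end belongs to a noncoding transcript and has no island, while both protein-coding transcripts begin 61.2 kb further on, at 94234689 of chromosome 15, in a CpG island of 1447 bp. This start lay in a K27R interval of 26.4 kb (94227001 to 94253400) and a K27M interval of 5.2 kb (94232001 to 94237200), and in no EZHIP interval.

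The procollagen N-proteinases remove the amino-terminal propeptide of fibrillar collagens, and all 3, Adamts2, Adamts3 and Adamts14, had an island at the start and a start site in K27R. Adamts2, the main enzyme for type I procollagen in skin, lay in 6 K27R intervals over 60.7% of its body, the widest of 214.6 kb (chromosome 11, 50258001 to 50472600) over its start. There the K27M interval spanned 10.0 kb (50412201 to 50422200) and the EZHIP interval 3.8 kb (50414201 to 50418000). Adamts14 had 76.4% and Adamts3 15.1% of its body covered in K27R. The nearest K27M and EZHIP intervals were both 143 kb from the Adamts14 start, and 995 and 441 kb from the Adamts3 start.

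Adamts13 encodes the protease that cuts von Willebrand factor in blood. It lay wholly in a K27R interval of 47.6 kb (chromosome 2, 26822801 to 26870400), and its nearest K27M interval was 101 kb away. The EZHIP list had an interval of 6.8 kb over its start (26825201 to 26832000) and another of 7.4 kb within the gene (26836201 to 26843600), over merged exons 7 to 14. Neither EZHIP interval held an island. Adamts7 and Adamts12, which cut cartilage oligomeric matrix protein, had no start site in any list, with K27R intervals 2.82 and 7.95 kb from their starts and 8.15% of the Adamts12 body covered.

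Of the 6 other Adamts genes, Adamts18 had a start site in all 3 lists, with intervals of 37.4 kb in K27R (chromosome 8, 116347201 to 116384600), 6.8 kb in K27M (116368801 to 116375600) and 4.2 kb in EZHIP (116370201 to 116374400). Adamts19 (chromosome 18, 58996418 to 59213332) had a K27R interval of 25.0 kb (58977401 to 59002400) and a K27M interval of 5.4 kb (58993801 to 58999200) over its start and island, while the nearest EZHIP interval was 336 kb away. Adamts17 had 29.6% of its body in 7 K27R intervals, none of them with an inhibitor interval. Adamts16 had a K27R interval of 7.4 kb over its start, and an EZHIP interval of 1.4 kb (chromosome 13, 70981601 to 70983000) lay 912 bp upstream of it. Adamts10 had its start 4.55 kb from a K27R interval and 0.429% of its body, at the 3′ end, in another, and Adamts6 was 563 kb from one.

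At the 8 start sites found in all 3 lists, the K27M and EZHIP intervals were narrower than the K27R interval around them. The K27R intervals over these starts spanned 37.4 to 214.6 kb (median 78.5 kb, 7 distinct intervals). The K27M intervals spanned 2.4 to 14.6 kb (median 9.40 kb), or 2.12 to 32.0% of the K27R width (median 11.7%). The EZHIP intervals spanned 3.2 to 12.4 kb (median 5.40 kb), or 1.77 to 21.5% (median 7.98%).

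K27M intervals were wider than EZHIP intervals at 6 of the 8 starts, and the ratio of widths ran from 0.75 at Adamts15 to 2.63 at Adamts2 (median 1.55). Mmp17, at 0.90, was the other start where the EZHIP interval was wider. At the 6 starts with the wider K27M interval, the EZHIP interval lay wholly inside it. The middle of the K27M interval lay between 0.2 kb upstream (Adamts9 and Adamts15) and 1.6 kb downstream (Adamts2) of the start. For EZHIP it lay between 1.6 kb upstream (Mmp24) and 1.6 kb downstream (Adamts8). Widths and their ratios were not computed over all genes with a start in all 3 lists, so they describe these 8 starts only. The lists were also cut differently, with 880 gaps under 5000 bp in EZHIP and 0 in K27M. The effect of this on the widths was not tested.

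**Figure D3:**
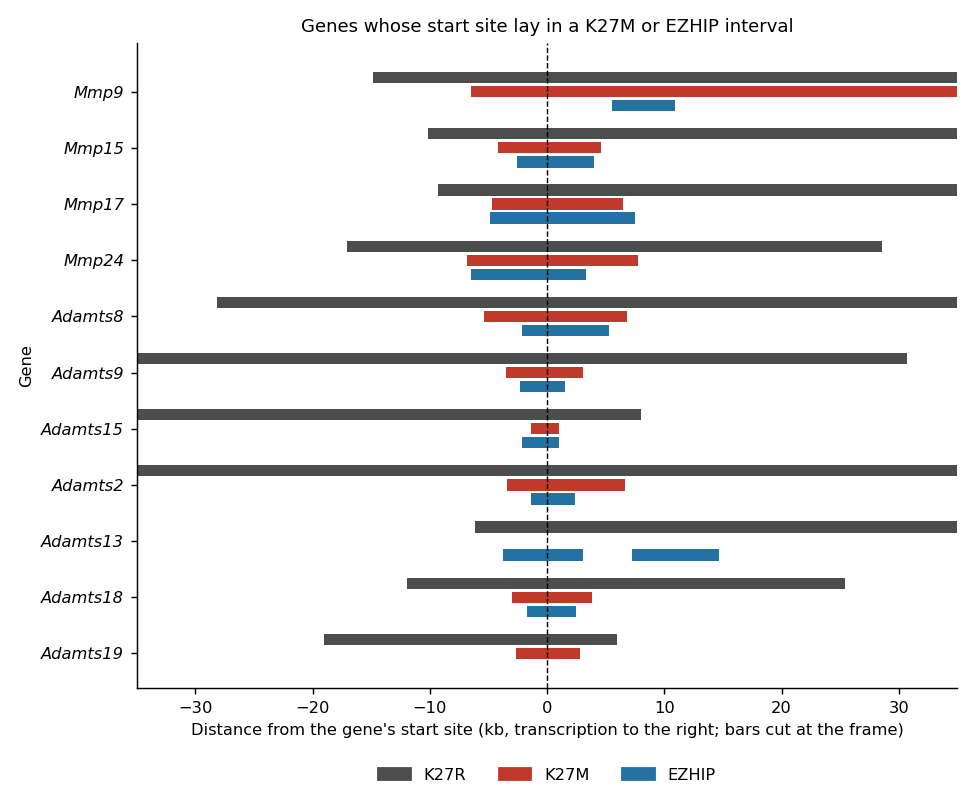
Intervals of K27R (dark grey), K27M (red) and EZHIP (blue) by distance from the start site in kb (x axis, transcription to the right, bars cut at the frame) for the 11 genes (y axis) whose start lay in a K27M or EZHIP interval, 1 library each. At 8 genes short red and blue bars straddle the start within a longer grey bar. Mmp9 has a long red bar with the blue bar inside the gene, Adamts13 has blue bars and no red bar, and Adamts19 has a red bar and no blue bar.

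All 8 start sites found in all 3 lists had a CpG island within 500 bp, as did 79.6% of all genes in that state. Over all members, 22 of 42 had one (52.4%, against 54.2% of all genes), so that the family as a whole was not richer in islands than the background. Of the 25 members with a start in K27R, 13 had an island (52.0%, against 44.5% of all genes with a start in K27R). Among members with an island, 13 of 22 lay in K27R (59.1%, against 23.1% of all genes with an island), and among those without, 12 of 20 (60.0%, against 34.2%).

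Among the 13 island members with a start in K27R, 9 had a K27M interval at the start (69.2%, against 55.5% of all such genes) and 8 an EZHIP interval (61.5%, against 48.3%). Among the 12 without an island, Mmp9 alone had a K27M interval (8.33%, against 12.6%) and Adamts13 alone an EZHIP interval (8.33%, against 12.0%). In both the members and all genes the share was higher with an island than without. The 4 island members with a start in K27R alone were Adamts3, Adamts14, Adamts17 and Mmp25. Their K27R intervals spanned 21.6, 40.2, 7.0 and 76.8 kb, and those of Adamts14 and Mmp25 were within the range of the 8 starts found in all 3 lists. Their islands measured 528 to 849 bp, which overlapped the 694 to 1911 bp at those 8.

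The observed to expected CpG ratio over 500 bp on either side of the start was also highest at the starts in all 3 lists. Its median was 0.75 at the 8 starts in all 3 lists (range 0.61 to 0.87), 0.24 at the 14 starts in K27R alone (0.02 to 0.73) and 0.47 at the 17 starts in no list (0.10 to 0.70), against 0.56 over all genes. Of the 14 starts in K27R alone, 7 belong to the Mmp cluster of chromosome 9, whose 10 genes had a median of 0.11 (0.02 to 0.22). The other starts in K27R alone ran from 0.26 (Mmp11) to 0.73 (Adamts3). The ranges of the states overlapped, and 9 members with an island lay in no list.

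**Figure D4:**
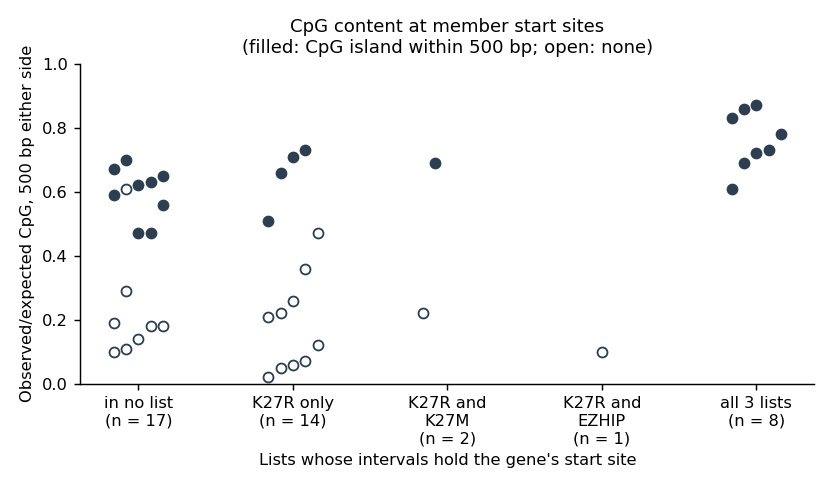
Observed to expected CpG ratio within 500 bp of the start site (y axis) for the 42 members by the lists whose intervals hold the start (x axis), filled where a CpG island lies within 500 bp and open where none does. The 8 genes in all 3 lists are filled and sit between 0.61 and 0.87, while the 14 genes in K27R alone spread from 0.02 to 0.73.

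The Mmp cluster of chromosome 9 holds 10 of the 23 Mmp genes in 427.1 kb (7272514 to 7699585), in the order Mmp13, Mmp12, Mmp1b, Mmp3, Mmp1a, Mmp10, Mmp8, Mmp27, Mmp20 and Mmp7. Mmp1b is transcribed against the other genes. The K27R list had 7 intervals here that covered 213.0 kb (49.9%), and the K27M and EZHIP lists had none. The start sites of 7 of the 10 genes lay in K27R intervals, all but those of Mmp13, Mmp10 and Mmp27. The nearest K27M interval on the right lay 432.0 kb beyond the cluster and the nearest EZHIP interval 431.4 kb beyond it, and on the left they lay 2476.3 and 4234.1 kb away.

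The K27R intervals over the cluster were uneven. The widest spanned 123.6 kb (7593801 to 7717400) and held the whole of Mmp20 and Mmp7. The next spanned 42.6 kb (7431601 to 7474200) over Mmp3 and the start of Mmp1a, and 35.4 kb (7530201 to 7565600) over the start of Mmp8. Intervals of 15.6, 8.2 and 2.8 kb touched Mmp13, Mmp12 and Mmp1b, and one of 2.6 kb touched no gene. None of the 10 start sites had a CpG island within 500 bp. The cluster did hold 6 islands, 3 of them in the widest K27R interval with the longest of those 429 bp, and no K27M or EZHIP interval lay over any of them.

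Repeated sequence limits the calls in the cluster, at Mmp1b and Mmp1a most. Of the runs of 36 bases in Mmp1b, 30.5% occurred more than once in or beside the cluster, as did 12.9% in Mmp1a, 5.90% in Mmp10 and 5.31% in Mmp3. The share was 1.72% or less in the other 6 genes. A second copy could lie in the same gene, in another gene or between genes, and its place was not recorded. The shares therefore do not measure how alike Mmp1a and Mmp1b are. Per the study's methods the aligner ran with default parameters, under which Bowtie reports a read that matches several sites at a single site. Reads of these repeats may therefore have been placed at the wrong site, and the short interval at Mmp1b is uncertain.

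**Figure D5:**
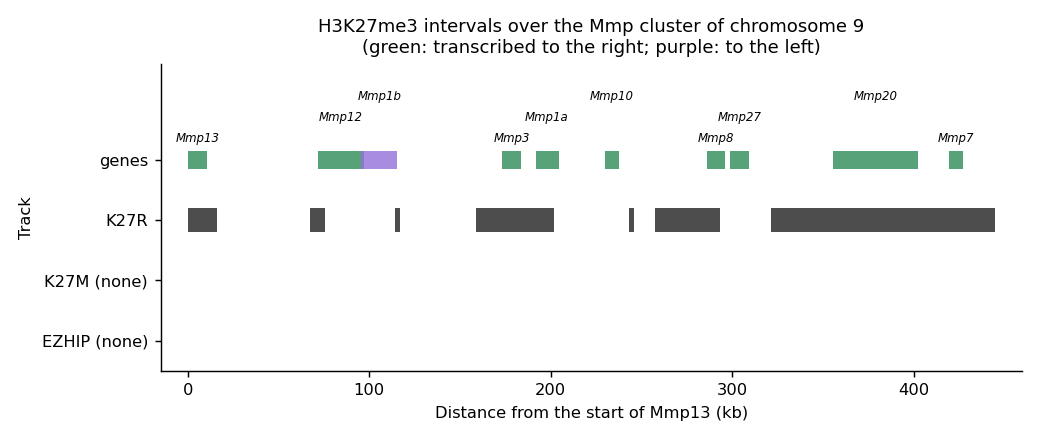
Genes (top track) and K27R, K27M and EZHIP intervals (lower tracks, 1 library each) over the Mmp cluster of chromosome 9, by distance from the start of Mmp13 in kb (x axis). The K27R track has 7 bars covering 49.9% of the cluster, and the K27M and EZHIP tracks are empty.

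Among the cluster genes, 7 of 10 had a pair of short motifs upstream of the start, a feature that the choice of genes did not use. Mmp12, Mmp8 and Mmp27 had neither motif in the 250 bases before the gene's 5′ end. AP-1, a transcription factor that growth factors and inflammatory signals activate, binds the letters TGANTCA, a motif that reads the same on both strands. It occurred in the 250 bases before the start of 8 members (19.0%, against 5.99% of all genes), 7 in the cluster and Mmp19 on chromosome 10. TATAAA, the letters of the TATA box, occurred on either strand in the same window of 12 members (28.6%, against 12.4%). The 8 genes with TGANTCA all had TATAAA on the gene's strand after it, without overlap, and none had a CpG island. The share of all genes with both motifs, and that of islands among genes with TGANTCA, were not computed. As 7 of the 8 are related neighbours in the cluster, they are not separate occurrences. The matches are shown in capitals with 10 bases on each side, at chr9:7272469-7272495 (plus strand) for Mmp13, chr9:7388103-7388129 (minus strand) for Mmp1b, chr9:7445766-7445792 (plus strand) for Mmp3, chr9:7464058-7464084 (plus strand) for Mmp1a, chr9:7502269-7502295 (plus strand) for Mmp10, chr9:7628126-7628152 (plus strand) for Mmp20, chr9:7692017-7692043 (plus strand) for Mmp7 and chr10:128227924-128227950 (plus strand) for Mmp19. They began 35, 72, 46, 73, 73, 95, 59 and 75 bases before the start, in the order printed. Mmp19, Mmp13 and Mmp10 had no K27R interval at the start and the other 5 did, so that the motif was found with and without such an interval. For Mmp13 a K27R interval began 287 bp downstream of the start. The motif counts used each gene's 5′ end and depend on that choice. The CCDS start of Mmp12 lies 2.99 kb after its 5′ end, and TGANTCA began 44 bases before that start. A match is a description of these letters and not evidence of binding.
Mmp13: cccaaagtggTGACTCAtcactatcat
Mmp1b: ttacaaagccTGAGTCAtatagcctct
Mmp3: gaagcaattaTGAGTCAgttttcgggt
Mmp1a: ttgtcaaccaTGAGTCAcatagcctct
Mmp10: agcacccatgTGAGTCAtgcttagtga
Mmp20: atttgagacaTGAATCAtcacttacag
Mmp7: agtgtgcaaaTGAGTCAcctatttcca
Mmp19: tctctctggcTGAGTCAcctcccactg

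Genes that act with these proteases were read the same way, against the background of 28.2% in K27R, 8.94% in K27M and 7.96% in EZHIP. These lists are short, and no share was tested. Of 8 inhibitor genes, the starts of Timp4, Spock1, Spock2 and Spock3 lay in K27R, those of Spock2 and Spock3 also in K27M, and that of Spock2 in EZHIP. Timp2, Timp3, Reck and A2m, which encode protease inhibitors, lay in no list. Of 32 Adam genes, the membrane-bound relatives of Adamts, 9 starts lay in K27R (28.1%), 1 in K27M (Adam22, 3.12%) and 2 in EZHIP (Adam22 and Adam23, 6.25%), so that the Adam genes were close to the background in K27R. Of 6 genes for Adamts-like proteins without a protease domain, 1 start lay in K27R (16.7%) and none in the inhibitor lists. Of 5 activator genes, Plg and Pcsk6 lay in K27R (40.0%) and none in the inhibitor lists.

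Among 14 matrix substrate genes, 5 starts lay in K27R (35.7%), and 4 of these also in both inhibitor lists (28.6% in each). They were Acan, Bcan and Ncan, which encode the proteoglycans of cartilage and brain that Adamts proteases cut, and Col2a1, the collagen of cartilage. Their K27M intervals spanned 11.0, 41.8, 50.8 and 18.6 kb and their EZHIP intervals 6.4, 15.4, 21.6 and 15.4 kb, in the order given. Ncan alone of the 4 had no island. Comp lay in K27R only.

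Marker genes and list settings were checked for the same libraries. Interval lists do not measure expression. Of 12 fibroblast marker genes, Pdgfra alone had a start in K27R (8.33%, against 28.2% of all genes), and it lay in all 3 lists. Of 14 matched markers of epithelium, endothelium, blood, muscle and nervous system, 7 had a start in K27R. The shortest gap between neighbouring intervals measured 5200 bp in the K27M list, 1200 bp in the EZHIP list and 0 bp in the K27R list. The study's methods give the same settings for all H3K27me3 calls in MEFs, with a merging gap wider than these. Merging intervals up to 10000 bp apart in every list changed the joint state of no member. Requiring EZHIP intervals of at least 5000 bp lowered its members from 9 to 5.

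Choice of start site moved single genes more than counts. With the start of a CCDS transcript in place of the gene's 5′ end, 22 of the 41 members that have such a transcript lay in K27R intervals (53.7%, against 28.3% of all genes with one). For K27M there were 10 (24.4%, against 9.39%) and for EZHIP 9 (22.0%, against 8.55%). Mmp9 moved to all 3 lists and Adamts20 to K27R and K27M. Adamts9 and Mmp11 moved to no list, since their CCDS transcripts begin inside the gene.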

How the data were processed

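H3K27me3 ChIP-Seq of MEFs expressing K27R, K27M or EZHIP was analysed from 1 interval list per library, 3 of 5 libraries in the series, grouped by sample title. Per the labels and the study's methods, crosslinked chromatin was digested with MNase, reads were aligned by the authors with Bowtie 1.0.0 to mm9 and to a reference genome for scaling, and broad peaks were called with MOSAiCS-HMM. The library used as background for the calls is not given in the sources used here. In all 3 lists some intervals lie closer together than the merging gap in those methods. The deposited lists hold chromosome, start and end on a grid of 200 bp bins, with no counts, heights or p-values, so that depth is unknown.

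The members, roles and gene lists were chosen with earlier results of these data known. Genes were protein-coding entries on chromosomes 1 to 19 of GENCODE vM1 (NCBIM37, the build of the lists). Lists were compared at the gene's 5′ end and over its body, with at least 1 bp of overlap, and cover is the percent of the body inside intervals. Exons are those of protein-coding transcripts, merged where they overlap and numbered from the 5′ end. CpG islands were segments of at least 200 bp in mm9, scored 17 for each CG and -1 for other bases, kept where G+C was 50% or more and the CpG observed to expected ratio passed 0.6. They were counted within 500 bp of the start. Positions count from 1. Every member was named, with positions for those that had an inhibitor interval. Related genes were named where their start lay in a K27M or EZHIP interval, and the others named were picked after their values were seen. No test was run, since each line had 1 library. The interval tools and the island finder were tested on simulated data. The work used Python 3.11.15, numpy 2.4.6 and matplotlib 3.10.9.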

Additional observations from a re-analysis of the deposited data

How the results depend on the processing

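Of 53 values recomputed for 15 results, 45 stayed within limits, namely 1.5-fold for counts and, for medians of gene body cover, the 95% order-statistic interval over members. The 8 that moved were as follows. With intervals of at least 5000 bp, 5 members had a start and 6 a body in EZHIP. With at least 10% of the body covered, 5 members were touched in K27M and 6 in EZHIP. With at least 50% covered, 16 were touched in K27R, 1 in K27M and 0 in EZHIP. With start sites up to 5000 bp from an interval, 2 members lay in K27R and EZHIP without K27M, since Adamts16 joined Adamts13. Merging up to 10000 bp moved no count beyond the limits. The CCDS start was chosen after seeing the data. No replicate could be left out and no paired analysis was possible because each line had 1 library. Unknown depth limits every absence: a start outside an interval was below the caller's threshold in that library, which does not show that the mark was absent.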
